A study of Mus musculus with 6 samples.

Results

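The mRNAs of 9 sterol synthesis enzymes were examined in regulatory T cells (Tregs) from the livers of ageing mice: Hmgcs1, Mvd, Idi1, Fdps, Fdft1, Sqle, Lss, Cyp51 and Msmo1, in the order in which their products act. They were taken by gene name from a table of counts per gene, and all 9 were found among the 13605 genes used and were tested. The Tregs, the Foxp3-positive CD4 T cells that hold immune responses in check, came from mice of 14 months, 3 libraries carrying the label Altre WT and 3 the label Altre knockout, and the treatment label reads "no" for all of them. Altre is a long non-coding RNA of Tregs, and the comparison asks which transcripts differ where it is deleted. The strain, the way the deletion was made, the sort, and whether replicate libraries stem from separate animals are not stated by the labels, so p-values measure the spread between libraries, which could be technical. The level of Altre was not analysed here, so the labels were not checked by it.

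Cells make cholesterol from acetyl-CoA through the mevalonate pathway. Its early steps yield isoprenoid diphosphates, which also serve protein prenylation, ubiquinone and dolichol, and its later steps join farnesyl diphosphate into squalene, close the sterol rings and trim them to cholesterol. When sterol in the endoplasmic reticulum is low, the SREBP2 transcription factor is cleaved, enters the nucleus and raises transcription of most enzymes of the pathway. Activated T cells draw on this pathway for membrane growth and for prenylated signalling proteins.

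Promoter windows are shown because SREBP2 acts with the factor NF-Y at promoters of this pathway, and RefSeq windows of 300 bases on GRCm38.p6 (250 before to 50 after the annotated start) were matched for 6 of the 9 members. Those of 4 members are printed 5′ to 3′ on the strand of the gene. Capitals mark every match, on either strand, to TCACNCCAC (a form of the SREBP element), CCAAT (the NF-Y box, which reads ATTGG on the other strand) or GGGCGG (the GC box, CCGCCC on the other strand). Hmgcs1 (chr13:119690101-119690400, plus strand), Idi1 (chr13:8885356-8885655, plus strand) and Msmo1 (chr8:64733529-64733828, minus strand) are shown as members with a higher mean in knockout, and Lss (chr10:76531355-76531654, plus strand) as the 1 member without.
Hmgcs1: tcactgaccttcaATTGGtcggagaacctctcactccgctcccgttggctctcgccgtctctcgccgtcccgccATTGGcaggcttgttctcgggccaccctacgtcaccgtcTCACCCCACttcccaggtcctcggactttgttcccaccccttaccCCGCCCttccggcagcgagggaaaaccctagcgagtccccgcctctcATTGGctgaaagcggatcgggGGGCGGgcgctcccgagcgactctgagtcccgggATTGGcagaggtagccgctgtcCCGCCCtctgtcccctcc
Idi1: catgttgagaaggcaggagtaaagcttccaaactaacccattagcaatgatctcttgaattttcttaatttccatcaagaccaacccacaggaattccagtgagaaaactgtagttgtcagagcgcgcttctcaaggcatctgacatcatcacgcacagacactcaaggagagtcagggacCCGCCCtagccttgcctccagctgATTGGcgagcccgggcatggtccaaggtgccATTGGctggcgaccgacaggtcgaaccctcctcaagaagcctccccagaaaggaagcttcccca
Msmo1: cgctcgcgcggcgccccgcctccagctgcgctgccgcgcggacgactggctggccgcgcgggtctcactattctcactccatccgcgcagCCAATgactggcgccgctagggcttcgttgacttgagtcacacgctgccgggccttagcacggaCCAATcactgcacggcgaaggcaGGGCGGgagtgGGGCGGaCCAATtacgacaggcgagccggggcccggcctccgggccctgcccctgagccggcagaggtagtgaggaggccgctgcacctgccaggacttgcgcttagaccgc
Lss: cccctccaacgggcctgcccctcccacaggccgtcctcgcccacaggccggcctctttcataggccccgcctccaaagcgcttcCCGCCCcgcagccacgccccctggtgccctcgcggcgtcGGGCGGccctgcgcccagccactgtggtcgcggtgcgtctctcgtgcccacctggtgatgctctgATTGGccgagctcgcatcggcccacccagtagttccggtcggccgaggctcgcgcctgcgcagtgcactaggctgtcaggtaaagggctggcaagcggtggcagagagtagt
All 6 windows held a CCAAT and a GGGCGG, which were held by 38% and 60.3% of the 12241 promoters of genes tested. Of 13 promoters of 10 other enzymes of the pathway, 69.2% held CCAAT and 76.9% held GGGCGG. The Hmgcs1 window held 4 NF-Y boxes and 3 GC boxes, and that of Msmo1 held 3 and 2. TCACNCCAC was found in the Hmgcs1 window alone of the 6, 137 bases before the start. It was held by 1.14% of promoters of genes tested and by 0 of the 13 promoters of other pathway enzymes. The matched stretches did not overlap one another, and a match is a description of the sequence, not a site of binding.

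Of the 9 enzymes, 8 had a higher mean in knockout Tregs and 1, Lss, a lower mean, where 50.8% of all 12789 genes tested had a higher mean in knockout. The median log2 fold change over the members was 0.47, against 0.0039 over all genes tested. None of the 9 passed an adjusted p of 0.05 (edgeR quasi-likelihood test, Benjamini-Hochberg over all genes), and percent called over all genes was 0%, the smallest adjusted p of any gene being 0.363. Hmgcs1, Idi1, Sqle and Msmo1 had an unadjusted p under 0.05, all with the higher mean in knockout, as did 2.72% of genes tested. In Hmgcs1, Idi1 and Sqle the 3 knockout libraries all lay above the 3 wild-type libraries, as in 5.6% of genes tested. The authors' deposited table calls 0 of the 9 members, against 1.82% of its genes. DESeq2 with genotype alone on the same counts called 0 of the 9, against 0.368% of genes. The deposited fold changes lay nearer to those of DESeq2 with replicate number as a further term (97.3% of genes within 0.01 log2 units, against 36.6% without it).

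The libraries held between 25240621 and 30776954 counts over the genes used. The 10 Treg and T cell markers were all detected in every library. Levels are in CPM, counts scaled by the library total times its TMM factor. Foxp3 stood at 86.3, 70.6 and 80.7 CPM in the wild type and 144, 81.3 and 98.6 CPM in the knockout. Library values are given here in the order of replicates 1, 2 and 3. Il2ra, the high-affinity receptor chain for interleukin 2, had 296, 360 and 261 CPM in wild type and 382, 452 and 467 CPM in knockout, and Cd4 had 902, 739 and 753 against 1258, 993 and 991 CPM, both with no overlap. Their log2 fold changes were 0.51 ± 0.14 and 0.44 ± 0.13 (SE, edgeR, adjusted p = 0.837 and 0.842). The authors' deposited table calls both higher in knockout, at adjusted p of 0.00384 and 0.000354, and DESeq2 with genotype alone called neither (adjusted p = 0.160 and 0.226). Of the 10 Treg and T cell markers, 5 averaged higher and 5 lower in knockout, and their median log2 fold change was 0.02. Their summed level overlapped between genotypes, at 7664 to 9518 CPM in wild type and 7799 to 9206 CPM in knockout. Macrophage markers, including those of Kupffer cells that reside in the liver, averaged higher in knockout for 14 of the 15 tested, and their summed level ran from 202 to 230 CPM in wild type and from 247 to 367 CPM in knockout. The 1 with a lower mean was C1qc (log2 fold change -1.21 ± 0.67, SE, edgeR, adjusted p = 0.902). In 6 of the 15 all knockout libraries lay above all wild-type libraries, as in 5.6% of genes tested. C1qb, Cd5l and Csf1r, the 3 with the smallest unadjusted p, were among these 6. Their log2 fold changes were 0.75 ± 0.19, 0.85 ± 0.24 and 0.95 ± 0.28 (SE, edgeR, adjusted p = 0.837 for each). The authors' deposited table calls C1qc lower in knockout (adjusted p = 0.0313) and C1qb and Slc40a1 higher (adjusted p = 0.00598 and 0.0438). DESeq2 with genotype alone called none of C1qc, C1qb and Slc40a1 (adjusted p = 0.994, 0.0678 and 0.173). Vsig4 and Timd4, defining markers of Kupffer cells, were at 0 in some wild-type libraries, but both were sparsely counted and overlapped between genotypes. In wild-type replicate 3 Vsig4 stood at 1.66 CPM, above the knockout libraries at 0.749, 1.475 and 1.03 CPM. Timd4 stood there at 2.44 CPM, above knockout replicate 1 at 1.81 CPM. Of 16 hepatocyte markers, 1 was tested, Trf, at 0.702 to 2.55 CPM, and the other 15 were not analysed here. Summed CPM ran from 97.2 to 128 in wild type and 141 to 159 in knockout for the 3 endothelial and stellate markers tested, nearly all of it Pecam1. It ran from 2743 to 3775 and from 2380 to 3171 for 6 B cell markers, nearly all of it Ighm, and from 112 to 294 and from 149 to 176 for 7 CD8 T and NK markers. For 2 markers of dendritic cells it was 10.4 to 19.4 and 8.93 to 14.5, and for 6 erythroid markers 69.9 to 232 and 76.4 to 85.5 in wild type and knockout. In bulk samples fewer cells of a type and less RNA per cell cannot be told apart, and the part of macrophage RNA in the values of the sterol enzymes was not tested.

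**Figure D1:**
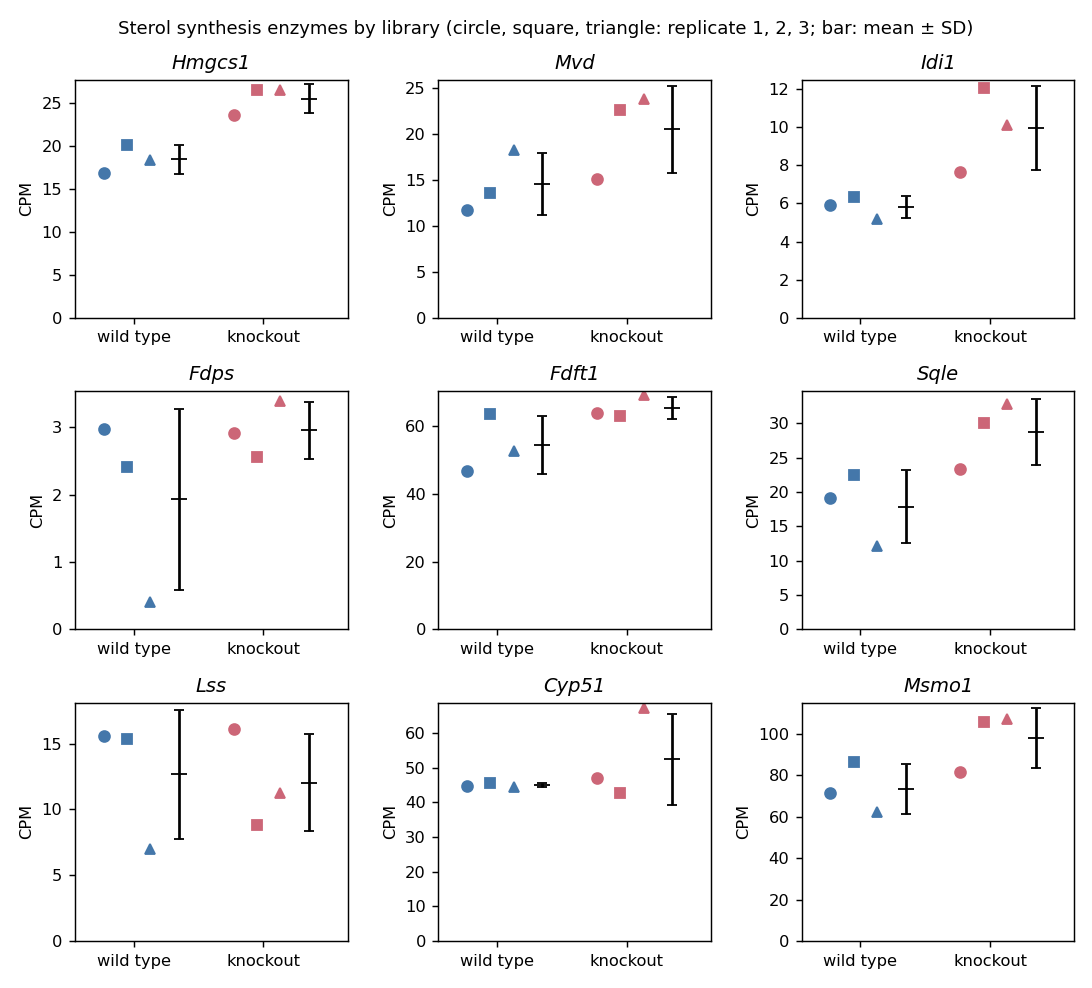
Level of each sterol synthesis enzyme (CPM, from 0) in the 3 wild-type (blue) and 3 knockout (red) Treg libraries, with circles, squares and triangles for replicates 1, 2 and 3 and a bar for the mean ± SD. Hmgcs1, Idi1 and Sqle show no overlap between genotypes, and the wild-type replicate 3 point of Fdps stands far below the others at 0.406 CPM.

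Hmgcs1 (chromosome 13, 119690379 to 119708260), the cytosolic HMG-CoA synthase that begins the mevalonate branch, stood at 16.8, 20.1 and 18.4 CPM in wild type and 23.5, 26.4 and 26.4 CPM in knockout. The lowest knockout library was above the highest wild-type library, and the spread within each genotype was the narrowest relative to its mean after that of Cyp51 in wild type and Fdft1 in knockout. The means were 18.4 ± 1.66 and 25.5 ± 1.69 CPM (SD, n = 3), and the log2 fold change was 0.47 (95% interval 0.04 to 0.89; edgeR, unadjusted p = 0.0335, adjusted p = 0.842). An annotated antisense gene, Gm48342, overlaps it, and without strand their reads cannot be told apart.

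Mvd (chromosome 8, 122433601 to 122443422) encodes mevalonate diphosphate decarboxylase, which forms isopentenyl diphosphate. Its level was 11.8, 13.6 and 18.3 CPM in wild type and 15.1, 22.7 and 23.8 CPM in knockout. Knockout replicate 1 lay below wild-type replicate 3, so the genotypes overlapped, and the interval of its log2 fold change of 0.49 ran from -0.09 to 1.08 (edgeR, adjusted p = 0.894). Mvd was the only member for which wild-type replicate 3 was the highest wild-type library.

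Idi1 (chromosome 13, 8885501 to 8892451) encodes the isomerase that turns isopentenyl into dimethylallyl diphosphate. It stood at 5.90, 6.34 and 5.17 CPM in wild type and 7.65, 12.0 and 10.1 CPM in knockout, with no overlap. Its mean went from 5.80 ± 0.589 to 9.94 ± 2.20 CPM (SD, n = 3), a 1.71-fold difference with a 95% interval from 1.10 to 2.67 (edgeR, unadjusted p = 0.0226, adjusted p = 0.842). Idi1 has 4 other annotated genes with a stretch of at least 200 bases at 90% identity or more, 3 of them processed pseudogenes, so its counts are uncertain where reads were shared.

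Fdps (chromosome 3, 89093588 to 89101959), farnesyl diphosphate synthase, was the least counted member, with 86, 61 and 11 reads in wild type and 74, 64 and 105 reads in knockout. Wild-type replicate 3 stood at 0.406 CPM while the other 5 libraries ran from 2.42 to 3.38 CPM. Its log2 fold change was 0.61, the interval running from -0.91 to 2.14 (edgeR, adjusted p = 0.975), and it was 0.12 without wild-type replicate 3, 1.07 without wild-type replicate 1 and 1.02 by limma-voom. With 6 other annotated genes matching it at 90% identity or more, 5 of them processed pseudogenes, its counts are uncertain as a transcript level.

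Fdft1 (chromosome 14, 63145150 to 63179578), squalene synthase, which commits farnesyl diphosphate to sterols, had 46.8, 63.6 and 52.6 CPM in wild type and 63.8, 63.0 and 69.1 CPM in knockout. Wild-type replicate 2 reached the level of the knockout libraries, and the log2 fold change was 0.27, between interval limits of -0.08 and 0.61 (edgeR, adjusted p = 0.917). Without wild-type replicate 1, the lowest library, it was 0.169. An annotated transcript of Ctsb, a cathepsin gene, shares 774 bases with that of Fdft1, and the processed pseudogene Gm6781 matches 1249 bases at 97.4% identity, so the assignment of such reads is uncertain.

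Sqle (chromosome 15, 59315077 to 59331192), squalene epoxidase, is a rate-limiting oxygenase of the pathway. It had 19.1, 22.4 and 12.1 CPM in wild type and 23.3, 30.1 and 32.8 CPM in knockout. Knockout replicate 1 lay just above wild-type replicate 2, and wild-type replicate 3 lay furthest below. The 1.61-fold difference had an interval from 1.08 to 2.40 (edgeR, unadjusted p = 0.0244, adjusted p = 0.842), and without wild-type replicate 3 the log2 fold change was 0.46 in place of 0.69.

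Lss (chromosome 10, 76531588 to 76557138), lanosterol synthase, closes the sterol rings. Its level was 15.6, 15.4 and 7.02 CPM in wild type and 16.1, 8.81 and 11.2 CPM in knockout, so that each genotype held libraries at both ends of the range. Its log2 fold change was -0.07, between interval limits of -0.86 and 0.71 (edgeR, adjusted p = 1.00), a direction that turned when replicate 1 or 2 of the wild type or replicate 2 of the knockout was left out. The 9 members were not tested against each other for a difference in fold change.

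Cyp51 (chromosome 5, 4081145 to 4104746), lanosterol demethylase, had 44.8, 45.5 and 44.4 CPM in wild type and 47.2, 42.7 and 67.3 CPM in knockout. Knockout replicate 2 was the lowest of the 6 libraries and knockout replicate 3 the highest. The log2 fold change of 0.22 (interval -0.20 to 0.64, edgeR, adjusted p = 0.965) was 0.0026 without knockout replicate 3 and 0.34 without knockout replicate 2.

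Msmo1 (chromosome 8, 64718139 to 64733792), methylsterol monooxygenase, which starts removal of the methyl groups at carbon 4 of the ring, was the most highly counted member. It had 71.7, 86.3 and 62.1 CPM in wild type and 81.6, 106 and 107 CPM in knockout. Only knockout replicate 1 fell within the wild-type range. The means were 73.4 ± 12.2 and 98.2 ± 14.4 CPM (SD, n = 3), and the log2 fold change was 0.42, between interval limits of 0.04 and 0.80 (edgeR, unadjusted p = 0.0326, adjusted p = 0.842). Without wild-type replicate 3 it was 0.30. In the authors' deposited table the log2 fold change of Msmo1 is 0.42 with an adjusted p of 0.231, and that of Sqle is 0.71 with an adjusted p of 0.235.

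**Figure D2:**
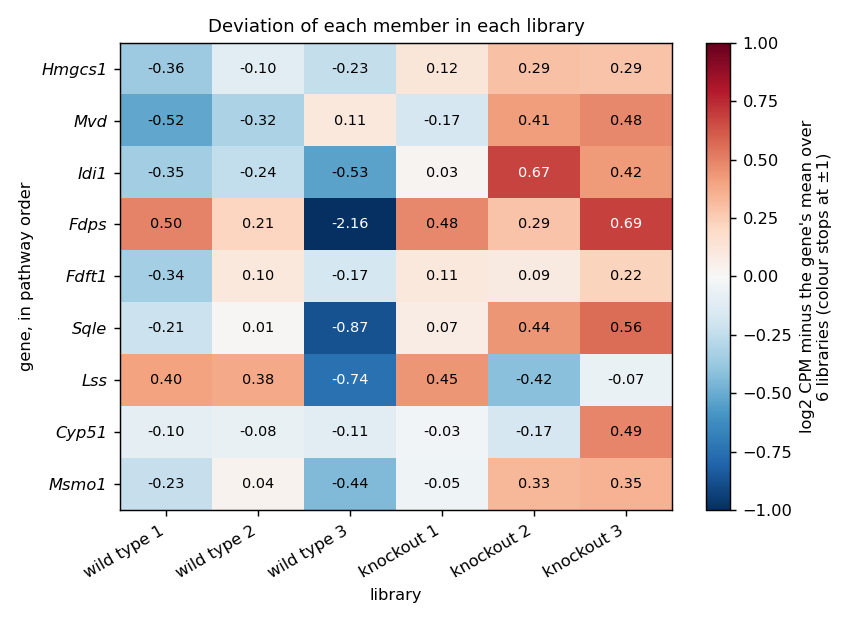
Log2 CPM of each member in each library minus the mean of that gene over the 6 libraries, genes in pathway order from top to bottom and colour stopping at ±1. Wild-type replicate 3 holds the strongest negative values, for Fdps (-2.16), Sqle (-0.87) and Lss (-0.74), and knockout replicate 3 is positive for every member but Lss.

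The libraries of a genotype were not alike across the members. Wild-type replicate 3 was the lowest library for 5 of the 9, wild-type replicate 1 for 3 and knockout replicate 2 for 1, while knockout replicate 3 was the highest for 6. The median over the 9 members of log2 CPM minus the mean of each gene came to -0.23, 0.015 and -0.438 in the wild-type libraries and to 0.073, 0.29 and 0.425 in the knockouts. Each knockout median lay above each wild-type median, with 0.058 log2 units between wild-type replicate 2 and knockout replicate 1. The same median over all genes tested was between 0.002 and 0.026. Knockout replicate 1, the lowest knockout library for the members, also had the lowest summed macrophage markers of the knockouts, 247 CPM against 363 and 367 CPM. In wild type those sums were 230, 202 and 206 CPM, lowest in replicate 2, the highest wild-type library for the members. The part of those cells in these orders was not tested. Without wild-type replicate 3 the median log2 fold change of the members was 0.302 in place of 0.467, with 8 of 9 still higher in knockout.

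Ratios of neighbouring steps, which do not depend on the scaling of a library, overlapped between genotypes for all 8 neighbouring pairs. The ratio of Sqle to Lss, per length of exon, was 2.38, 2.83 and 3.35 in wild type and 2.82, 6.65 and 5.67 in knockout. Of the knockout libraries, replicate 1 alone lay within the wild-type range for this ratio. The ratio of Cyp51 to Msmo1 averaged 0.865 ± 0.130 and 0.747 ± 0.164 (SD, n = 3), a difference smaller than the spread within a genotype.

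**Figure D3:**
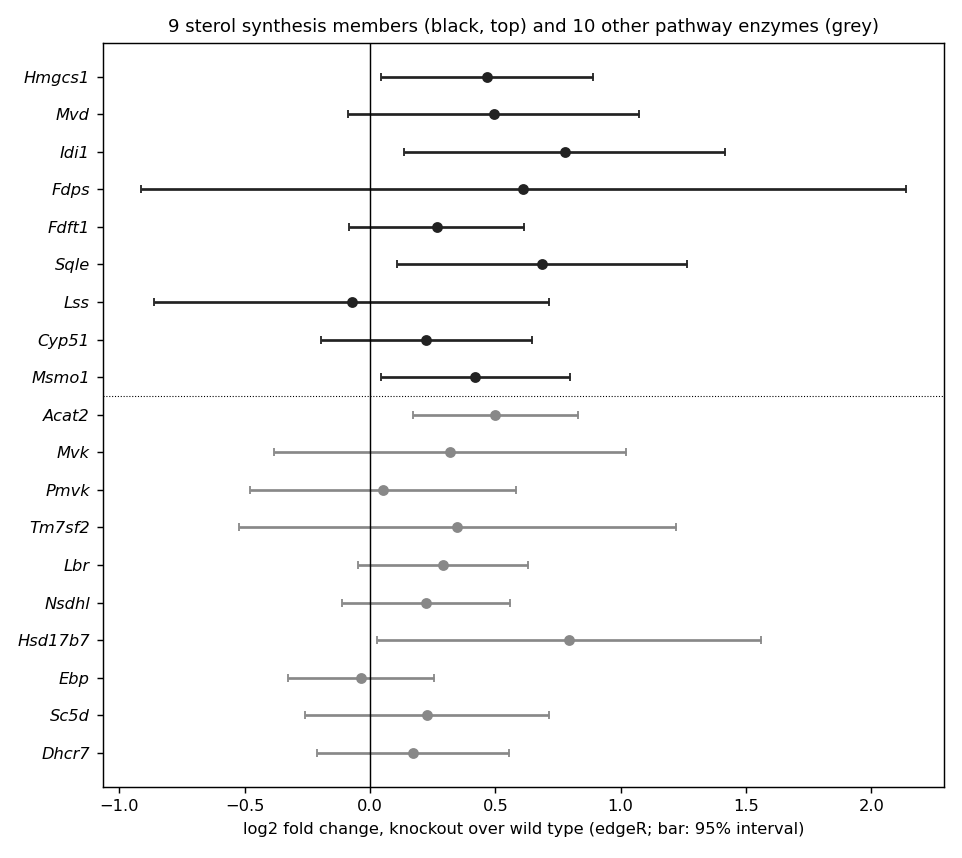
Log2 fold change of knockout over wild type (edgeR) with its 95% interval for the 9 sterol synthesis members in pathway order (black) and 10 further enzymes of the pathway (grey). The intervals of Hmgcs1, Idi1, Sqle and Msmo1 lie above 0, before any adjustment for the number of genes tested, and that of Fdps is the widest of the members.

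Levels of different genes were compared per kilobase of merged exon, scaled to a common total over the genes with a known length. In wild type the order from the highest was Fdft1 (34.1 ± 4.63), Msmo1 (31.9 ± 5.67), Cyp51 (27.1 ± 1.60), Mvd (20.7 ± 3.78), Hmgcs1 (10.7 ± 0.718), Sqle (8.63 ± 2.71), Idi1 (4.42 ± 0.579), Lss (3.17 ± 1.32) and Fdps (1.25 ± 0.903; SD, n = 3). Library ranges overlapped between Fdft1 and Msmo1, Msmo1 and Cyp51, Hmgcs1 and Sqle, Idi1 and Lss, and Lss and Fdps, and were apart for the other neighbours. The order in knockout was the same except that Msmo1 (42.3 ± 5.77) stood above Fdft1 (41.0 ± 3.39), whose ranges again overlapped. Idi1 and Lss overlapped in wild type and were apart in knockout, at 5.92 to 8.67 for Idi1 and 2.06 to 4.05 for Lss. The order depends on the length used: per length of the longest coding transcript, an alternative chosen after seeing the data, Msmo1 was highest in both genotypes (69.7 ± 12.0 in wild type), Sqle stood above Hmgcs1, and Lss above Idi1 in wild type. Transcripts of the 9 members had a GC content of 41.9% to 59.3%, around the median of 49.9% over genes tested.

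**Figure D4:**
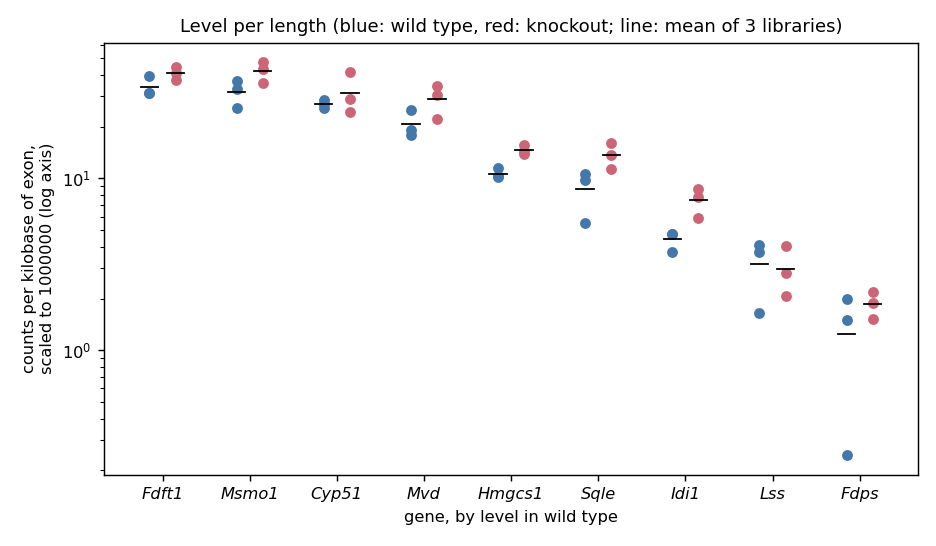
Level per kilobase of merged exon, scaled to a common total (log axis), for the 9 enzymes ordered by their mean in wild type, with 1 point per library (blue wild type, red knockout) and a line at the mean of 3 libraries. Fdft1, Msmo1, Cyp51 and Mvd form the upper group and Fdps is lowest in both genotypes.

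A list of 10 further enzymes between acetyl-CoA and cholesterol was tested, and 9 averaged higher in knockout, the median of their log2 fold changes being 0.26. None passed an adjusted p of 0.05, and in 3 of them the 3 knockout libraries lay above the 3 wild-type libraries (5.6% of genes tested). Acat2, the thiolase that acts just before Hmgcs1, had 39.5, 36.0 and 35.6 CPM in wild type and 49.0, 53.2 and 55.0 CPM in knockout. Its log2 fold change was 0.50 ± 0.15 (SE, edgeR, adjusted p = 0.837). Hsd17b7, a 3-keto sterol reductase that acts with Msmo1 and Nsdhl, had 3.66, 7.68 and 8.60 CPM in wild type and 13.0, 10.1 and 11.4 CPM in knockout. Lbr, the lamin B receptor, which is also a sterol reductase, overlapped between genotypes at 392, 301 and 264 CPM in wild type and 425, 355 and 392 CPM in knockout.

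Of 16 genes of SREBP control and lipoprotein uptake, 13 averaged higher and 3 lower in knockout. An unadjusted p under 0.05 (edgeR) was found for 1, Rnf145, which was lower in knockout, and for 5.82% of all genes tested. None of the 16 passed the adjusted p. Srebf2, which encodes SREBP2, had 46.0, 48.5 and 45.5 CPM in wild type and 68.3, 44.7 and 68.6 CPM in knockout, with replicate 2 of the knockouts below every wild-type library. Mbtps2, the site-2 protease that cleaves SREBP, had 15.1, 13.5 and 14.9 CPM in wild type and 17.4, 19.6 and 21.1 CPM in knockout, with no overlap. Insig1, which retains SREBP in the endoplasmic reticulum and is itself a target of it, had a log2 fold change of 0.02 ± 0.20 (SE), a sign that turned in 3 of the alternatives. Stard4, a carrier of cholesterol, had a log2 fold change of 0.32 ± 0.15 and Rnf145, a ubiquitin ligase, one of -0.46 ± 0.17 (SE, edgeR, adjusted p = 0.865 and 0.842). Without wild-type replicate 1 that of Rnf145 was -0.28. Among 10 genes of fatty acid synthesis tested, 5 averaged higher and 5 lower in knockout (median log2 fold change 0.02), and Scd2, a desaturase, had the smallest p (log2 fold change 0.40 ± 0.18, SE, edgeR, adjusted p = 0.865). The 18 proliferation markers had a median log2 fold change of 0.04.

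**Figure D5:**
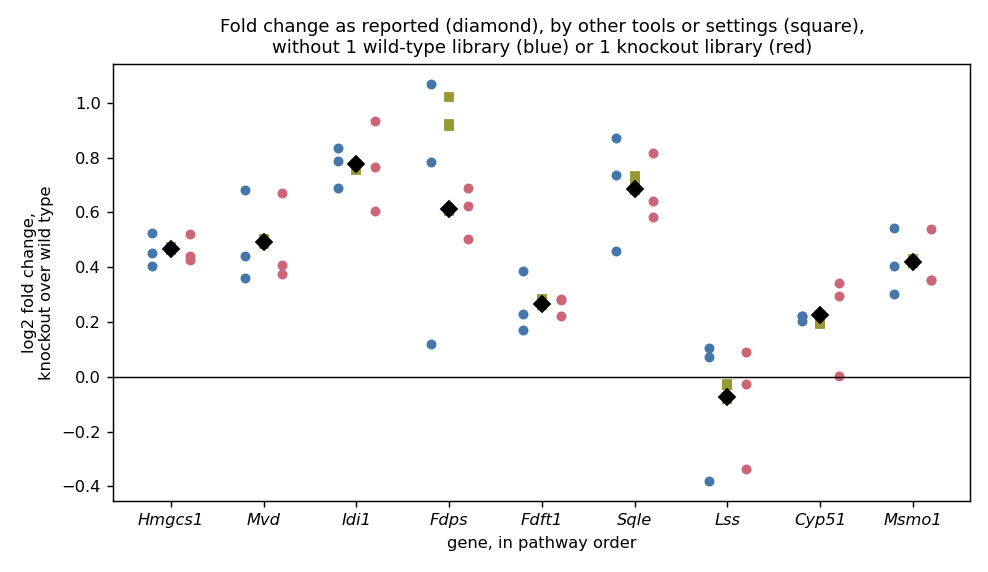
Log2 fold change of each member as reported (black diamond), by other tools or settings (squares), without 1 wild-type library (blue) and without 1 knockout library (red). Hmgcs1 moves least among the 9 members with values from 0.405 to 0.525, Fdps moves most (0.12 to 1.07), and Lss lies on both sides of 0.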

How the data were processed

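The authors deposited 1 table with whole-number counts per gene for the 6 libraries, taken as raw counts because library totals differ. STAR, cutadapt, DESeq2 and mm10 appear in the submitters' processing notes, without versions or roles, and per the labels' protocols RNA came from a micro-scale column kit and libraries from a SMARTER kit. How reads were counted, and whether by strand, is not given in the sources used here. The authors' mean normalized count (a signal) stands beside the counts, per the file headers, with their log2 fold change, Wald statistic (a score), p-value and adjusted p-value, which were used only where the deposited table is named.

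Of 13623 rows, 18 whose gene name had become a date (0.2945% to 0.3078% of counts) were left out. The counts were compared by edgeR 4.0.16 (R 4.3.3) (filterByExpr, TMM scaling, genotype alone in the quasi-likelihood model) over 12789 genes with Benjamini-Hochberg adjustment, and each SE is the fold change over the square root of F. Centred log2 CPM used a prior count of 2. Exon lengths and gene positions came from GENCODE M21 on GRCm38, the assembly of mm10, for 99.0% of genes, and promoters from RefSeq. Alternatives were DESeq2 1.42.0, limma 3.58.1 (voom), RLE scaling, no low-count filter, a replicate block (also with DESeq2, added after seeing the data) and each library left out. Within a genotype, pairs of libraries exceeded sampling noise (chi-square of 39.2 to 70.6 per gene). Each was taken as 1 replicate, though this value cannot tell separate animals from separate preparations of 1 sample.

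The members and the gene lists were chosen with earlier results of these data known, so lists are described and not tested. Genes named besides the members are 3 fixed ones (Insig1, Srebf2 and Foxp3), up to 3 per list with the smallest unadjusted p, and the 5 nearest to the mean profile of the members. Marker lists are given mainly as sums. The macrophage markers C1qc, Slc40a1, Vsig4 and Timd4 are named outside this rule. Some genes of the pathway are not reported here and were left out of the lists. 3 libraries against 3 cannot give an exact permutation p below 0.1, so none is given.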

Additional observations from a re-analysis of the deposited data

How the results depend on the processing

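Under the 12 alternatives 0 members and 0 of the other sterol pathway enzymes were called, and the members' lowest adjusted p was 0.241. Of all genes, RLE scaling, limma-voom and no low-count filter called 0, and edgeR with 1 library left out called from 0 to 1. DESeq2 called 0.368% of all genes, edgeR with the replicate block 0.125%, and DESeq2 with the block 244 of 13605. The members' fold changes kept their direction in 105 of 108 cases, the other 3 being Lss when replicate 1 or 2 of the wild type or replicate 2 of the knockout was left out, where its log2 fold change was 0.105, 0.0715 and 0.0914. With 1 library left out, Lss ranged from -0.38 to 0.105, the members' median from 0.302 to 0.538, the members with a higher mean in knockout from 8 to 9 and the other enzymes with a higher mean from 8 to 10.

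Over all genes, DESeq2 called 17 higher and 32 lower, against 0 and 0 by edgeR and by limma-voom, where 744 and 798 genes had an unadjusted p under 0.05. With 1 library left out, edgeR called 0 higher and from 0 to 1 lower, the 1 without knockout replicate 1. With the replicate block edgeR called 5 higher and 11 lower, and DESeq2, in a fit chosen after seeing the data, 58 and 186. The fold changes of the authors' deposited table differed from those of DESeq2 with the block by a median of 0.000179 log2 units (97.3% of genes within 0.01), against 0.0189 without it (36.6%). The shared replicate numbers were not taken as pairs, as the same-numbered libraries' deviations from their genotype means correlated over genes at 0.108, 0.0823 and 0.0239. Every library did correlate best with its own number, a hint from the data, and the labels do not say what a number marks. Set side by side by number, Hmgcs1, Mvd, Idi1, Sqle and Msmo1 were higher in knockout for all 3 numbers, as were 16% of genes tested. With the block none of the 9 members was called by either tool, against 0.125% of all genes by edgeR and 244 of 13605 by DESeq2.

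Depth limits Fdps most among the members, and 3 libraries per genotype limit all intervals. Intervals cover the spread between these libraries.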

Other observations

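The isoprenoid branch, which uses farnesyl and geranylgeranyl diphosphate made by the pathway, averaged higher in knockout for 8 of 14 genes and had a median log2 fold change of 0.01. The subunits of protein farnesyltransferase, the enzyme that attaches farnesyl to proteins, had fold changes of opposite sign. Fntb, its beta subunit, had 20.6, 15.2 and 17.6 CPM in wild type and 26.0, 30.1 and 34.8 CPM in knockout, with no overlap. Fnta, the alpha subunit that is also part of the type I geranylgeranyl transferase, had 56.2, 30.3 and 15.4 CPM in wild type and 10.8, 11.6 and 13.2 CPM in knockout, where all knockout libraries lay below the wild type and wild-type replicate 1 stood highest. Pggt1b, the beta subunit of the type I enzyme, had 35.9, 35.4 and 35.0 CPM in wild type and 28.2, 26.2 and 24.0 CPM in knockout. Their log2 fold changes were 0.77 ± 0.21, -1.52 ± 0.39 and -0.44 ± 0.16 (SE), and none passed (edgeR, adjusted p = 0.837, 0.837 and 0.842). Fnta was called lower by DESeq2 (log2 fold change -1.53, adjusted p = 0.0259) and in the authors' deposited table (-1.34, adjusted p = 0.00738), and by edgeR without wild-type replicate 1 its log2 fold change was -0.94.

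Among genes of sterol efflux, storage and LXR signalling, 4 of the 6 tested had a higher mean in knockout. Nr1h3, which encodes LXR alpha and is abundant in macrophages, had 5.66, 4.43 and 3.88 CPM in wild type and 6.19, 6.70 and 13.5 CPM in knockout, beside summed macrophage markers of 202 to 230 and 247 to 367 CPM. The part of those cells in its level was not tested. Abcg1, an exporter of cholesterol, had a log2 fold change of -0.18 ± 0.13, and Soat1, which esterifies it, one of 0.21 ± 0.17 (SE, edgeR, adjusted p = 0.938 and 0.959). With 1 library left out the value of Soat1 ran from 0.0814 to 0.36, and that of Abcg1 was -0.107 when replicate 3 of the wild type was dropped and -0.108 when replicate 3 of the knockout was.

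The profile over the 6 libraries nearest to the mean profile of the members, by root mean square distance of centred log2 CPM, was that of Abcg3 at 0.0543 log2 units, followed by Slc17a9 (0.0553), Acer2 (0.0712), H2-Ob (0.0770) and Ccna2 (0.0878). Of 10690 genes averaging at least 50 counts, Msmo1 ranked 10 by this distance, Sqle 122, Hmgcs1 136, Fdft1 280, Idi1 530 and Cyp51 946. Mvd ranked 4916, Lss 6869 and Fdps 9711, although each member is part of the mean. Stard4 ranked 57 and Acat2 89, and Insig1 ranked 1515. These ranks rest on 6 libraries and are given as a description.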
